A study of Rattus norvegicus with 6 samples.

Results

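The collagen chain genes were examined in 6 RNA sequencing libraries of nasal mucosa cells of the rat, labelled as mesenchymal stem cells. Members were chosen by symbol alone, as Col, a type number, the letter a and a chain number. This gave 43 of the 20653 genes with counts. The labels divide the libraries into EMSC (n = 3) and NPS-EMSC (n = 3), and the series title speaks of mesenchymal stem cells with raised expression of neuropeptide S. Both groups carry the genotype label SD and are described as primary cells, with no treatment, time or age given. The labels do not say whether EMSC received a control vector, so neuropeptide S and the delivery of its gene cannot be told apart as sources of a difference. They also do not say whether libraries of a group came from separate cultures, so the p-values measure only the spread between these libraries, which may be technical.

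Collagens are secreted matrix proteins in which long stretches of repeated glycine motifs let chains wind into a helical trimer. Some trimers hold copies of a single chain and others mix chains, so the makeup of a collagen depends on which chain genes a cell transcribes. Fibrillar collagens build the load-bearing fibrils of connective tissue. Network collagens form sheets such as the basement membrane, and the FACIT class (fibril-associated collagens with interrupted helices) sits on fibril surfaces. Transmembrane collagens span the cell membrane. Mesenchymal stromal cells and fibroblasts are major producers of types I, III and VI.

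The libraries held 39082245 to 40261205 counted reads, and Nps checked the labels with 77014 to 93566 reads in each NPS-EMSC library and 0, 0 and 10 in EMSC. The surface markers fixed for mesenchymal stem cells (Thy1, Nt5e, Eng, Cd44, Itgb1, Pdgfra and Pdgfrb) were present in every library, with a summed level of 3954 to 4190 CPM in EMSC and 4787 to 4943 CPM in NPS-EMSC. Of these 7 markers 6 were higher in NPS-EMSC, Thy1 by 2.92-fold and Nt5e by 4.45-fold among them, and Pdgfra was 1.93-fold lower. By the test described below, 29.7% of all genes tested were higher and 29.5% lower. Every count of markers, here and in later paragraphs, is read against these shares. CPM are read counts over the library total, in units of 1e+06 reads, after TMM scaling, a correction for differences in library makeup. Smooth muscle markers summed to 787 to 912 CPM in EMSC and 3549 to 3756 CPM in NPS-EMSC, with 5 of 6 higher and Des not passing. Leukocyte markers summed to 55.5 to 68.7 CPM against 8.88 to 11.2 CPM. Of these, 5 of 6 were lower, with Ptprc at 3 reads or fewer over the NPS-EMSC group. Ptprc, Tyrobp and Csf1r had at most 8 reads in any NPS-EMSC library. They had enough reads to be tested only through EMSC, so they could enter this count only by being lower. Lyz2 made up most of the EMSC sum, at 52.5 ± 7.70 CPM there and 3.84 ± 0.940 CPM in NPS-EMSC (SD, n = 3). Cd74 was higher, though its groups overlapped. Markers of Schwann and olfactory glia summed to 28.9 to 30.9 CPM against 5.85 to 7.21 CPM, and both tested members were lower. Epithelial markers summed to 4.40 to 5.18 CPM against 10.4 to 13.5 CPM through Krt8 and Krt18, the 2 of 7 with enough reads to be tested, which were higher. Of the other epithelial markers, Krt5 had 7, 3 and 18 reads in EMSC and 0 in each NPS-EMSC library, and Epcam, Cdh1, Krt14 and Col17a1 had at most 11 reads in any library. The endothelial sum was 2.67 to 3.10 CPM against 2.28 to 2.98 CPM. The part of these markers in the collagen results was not tested. In bulk RNA, fewer cells of a type and less RNA per cell cannot be told apart.

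Of the 43 collagen chains, 37 had enough reads to be tested. Among these, 9 were higher and 20 lower in NPS-EMSC at a Benjamini-Hochberg adjusted p under 0.05 (edgeR quasi-likelihood test over 14505 genes), and 8 did not pass. The same test called 59.3% of all genes tested, 29.7% higher and 29.5% lower. Collagen chains were thus called higher in 24.3% and lower in 54.1% of those tested. At a change of at least 2-fold, 7 chains were higher and 10 lower, against 6.48% and 8.30% of all genes tested. The 3 values of each group did not overlap for 9 chains on the higher side and 20 on the lower side, which is seen in 32.4% and 32.3% of all genes tested. The median log2 fold change (NPS-EMSC minus EMSC) was -0.28 over the chains and -0.0048 over all genes tested, and the median absolute value was 0.85 against 0.34. A chain with reads in 1 group alone could pass the read filter only by differing. Col2a1, Col4a3, Col4a4, Col6a5, Col19a1 and Col22a1 fell below the filter's minimum of 0.254 CPM in at least 1 library. All of them are in the 2-fold counts, the non-overlap counts and the medians above, with Col4a3, Col4a4 and Col19a1 on the higher side. Those contrasts with all genes therefore rest in part on chains favoured by the filter. Over the other 31 tested chains, 6 were higher, 17 lower and 8 not called.

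**Figure D1:**
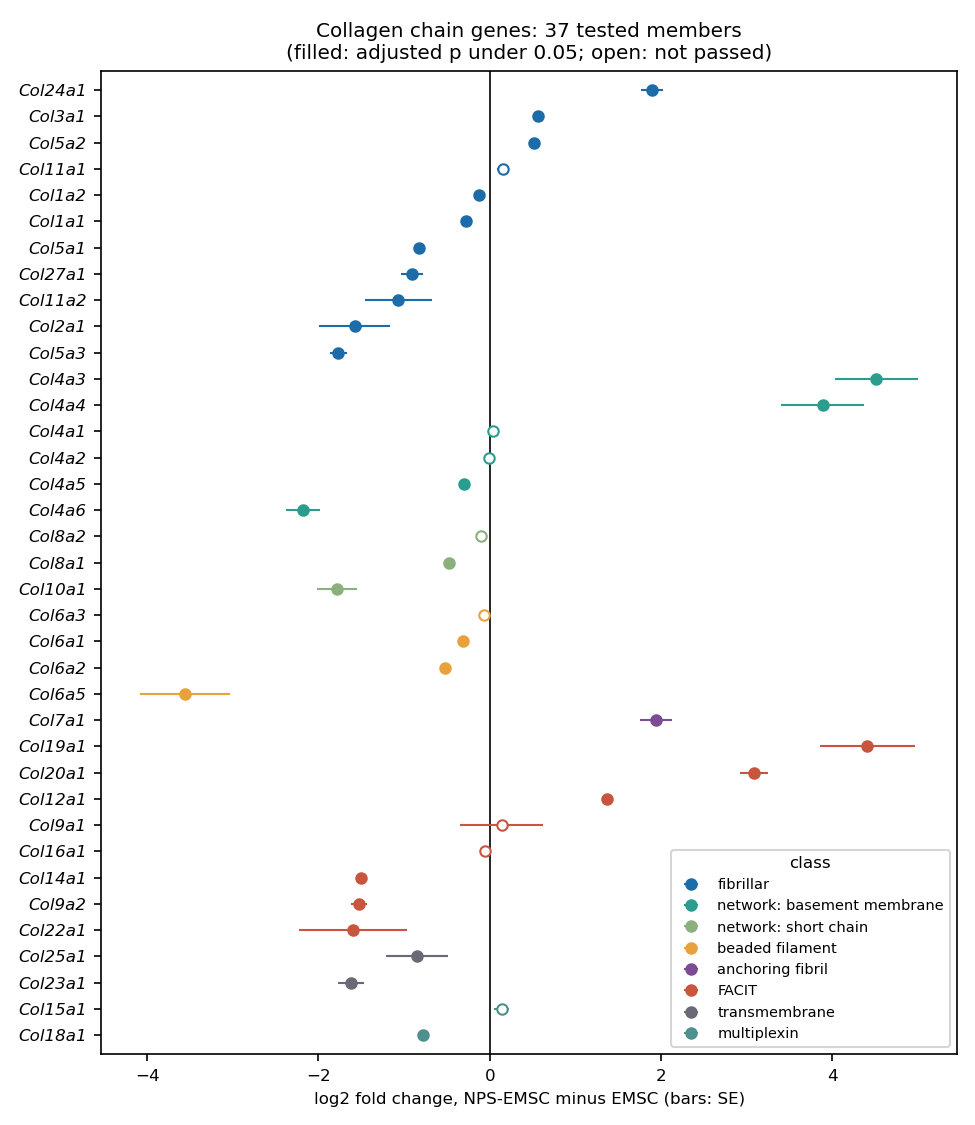
Log2 fold change (NPS-EMSC minus EMSC, x axis) of the 37 tested collagen chains, grouped by class, with bars for the standard error. Filled points passed an adjusted p under 0.05 and open points did not, and chains of 1 class lie on both sides of 0 among the fibrillar, basement membrane, FACIT and multiplexin members.

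The chains together took 3.45%, 3.86% and 3.52% of counted reads in EMSC replicates 1, 2 and 3, and 3.34%, 3.43% and 3.31% in NPS-EMSC. The ranges of these unscaled shares came within a narrow margin of each other without overlapping. The means were 3.61% ± 0.219 and 3.36% ± 0.0646 (SD, n = 3), a difference of -0.25 percentage points that shrank to -0.12 without EMSC replicate 2. That library had the highest CPM of its group in 26 of 37 tested chains. After TMM scaling the groups overlapped. The chains then summed to 33649, 38432 and 34620 CPM in EMSC and 34117, 34681 and 33579 CPM in NPS-EMSC.

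The promoter region of the type IV genes is shown first because these 6 chains lie in head-to-head pairs that share the space between their starts, and because the pairs had different calls. RefSeq (rat assembly GRCr8) held 37 promoter windows of 34 of the 43 chains, some with more than 1 start, and the deposited files name no build. Capitals mark the letters of 4 motifs searched on both strands in the 250 bases before each start. These were the GC box (GGGCGG), the CCAAT box (CCAAT), the TATA box (TATAAA) and the AP-1 site (TGANTCA). The printed sequences held only the GC box. For Col4a1 and Col4a2 only the interval between the starts is printed, and their full windows of 250 bases each also held a CCAAT box. The windows of Col4a3 and Col4a4 share 88 bases.
Col4a2-Col4a1 interval, chr16:84885521-84885596, + strand: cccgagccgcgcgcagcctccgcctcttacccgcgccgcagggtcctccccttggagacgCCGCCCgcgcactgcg
Col4a3 upstream, chr9:91323740-91323989, + strand: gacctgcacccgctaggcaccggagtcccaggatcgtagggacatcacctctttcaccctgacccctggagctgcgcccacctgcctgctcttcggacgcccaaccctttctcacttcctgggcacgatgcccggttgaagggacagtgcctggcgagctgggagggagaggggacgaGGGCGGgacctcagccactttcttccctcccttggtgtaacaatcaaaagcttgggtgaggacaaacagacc
Col4a4 upstream, chr9:91323578-91323827, - strand: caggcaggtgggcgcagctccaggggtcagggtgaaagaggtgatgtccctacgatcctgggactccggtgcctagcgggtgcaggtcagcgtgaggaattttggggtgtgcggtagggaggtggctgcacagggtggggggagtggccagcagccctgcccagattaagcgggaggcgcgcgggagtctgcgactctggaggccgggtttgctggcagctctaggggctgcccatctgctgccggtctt
Col4a5 upstream, chrX:109907109-109907358, + strand: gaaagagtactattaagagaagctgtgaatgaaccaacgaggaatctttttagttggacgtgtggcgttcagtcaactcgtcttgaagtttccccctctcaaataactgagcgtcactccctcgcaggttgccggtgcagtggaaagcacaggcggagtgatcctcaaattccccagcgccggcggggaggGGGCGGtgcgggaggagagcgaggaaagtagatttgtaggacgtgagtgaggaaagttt
Col4a6 upstream, chrX:109905945-109906194, - strand: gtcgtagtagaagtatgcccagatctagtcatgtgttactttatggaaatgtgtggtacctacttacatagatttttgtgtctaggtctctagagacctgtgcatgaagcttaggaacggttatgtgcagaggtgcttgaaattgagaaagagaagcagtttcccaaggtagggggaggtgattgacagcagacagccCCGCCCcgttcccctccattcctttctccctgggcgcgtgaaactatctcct

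The starts of Col4a1 and Col4a2 lay 76 bases apart, those of Col4a3 and Col4a4 412 bases apart and those of Col4a5 and Col4a6 1414 bases apart, on opposite strands in each pair. The interval between Col4a1 and Col4a2 was 78.9% G or C, and the upstream windows of Col4a3, Col4a4, Col4a5 and Col4a6 were 62.0%, 66.4%, 52.8% and 48.0%. The median of all 33469 RefSeq windows was 51.2%. A GC box was present in each printed sequence but that of Col4a4, and in 20 of 37 collagen windows (54.1%) against 30.5% of all windows. A CCAAT box was present in 12 collagen windows (32.4%, against 34.0% of all windows) and a TATA box in 4 (10.8%, against 12.9%), namely Col10a1, Col13a1, Col17a1 and Col1a2. The AP-1 letters occurred in the window of Col6a1 alone (6.34% of all windows). A match describes letters and is not evidence of a bound site.

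Of the 6 basement membrane chains, Col4a3 and Col4a4 rose from near 0, Col4a5 and Col4a6 fell, and the abundant Col4a1 and Col4a2 did not pass. Col4a1 and Col4a2 encode the chains of the widespread type IV trimer. Col4a1 stood at 1055, 1184 and 1013 CPM in EMSC against 1101, 1132 and 1100 CPM in NPS-EMSC (log2 fold change 0.04, 95% interval -0.07 to 0.14). Col4a2 stood at 1096, 1219 and 1072 CPM against 1136, 1130 and 1097 CPM (log2 fold change -0.01, 95% interval -0.11 to 0.09). The groups overlapped for both, and the small Col4a1 value turned negative under some scalings given with the processing alternatives.

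Col4a3 and Col4a4 encode chains of the specialised basement membranes of glomerulus, lung and inner ear. Col4a3 had 0.680, 0.0247 and 0.476 CPM in EMSC against 11.3, 7.99 and 11.1 CPM in NPS-EMSC (log2 change, the log2 fold change with its standard error, 4.51 ± 0.49 SE, adjusted p = 9.84e-05; 5.42 with limma-voom). Col4a4 was at 0, 0.148 and 0.175 CPM in EMSC against 3.0025, 1.65 and 2.18 CPM in NPS-EMSC (log2 change 3.88 ± 0.49 SE, adjusted p = 2.60e-07; 4.97 with limma-voom). All NPS-EMSC libraries were above all EMSC libraries for both genes. Per length, Col4a3 stayed far below Col4a1, at 1.22 ± 0.218 FPKM against 166 ± 3.57 FPKM for Col4a1 in NPS-EMSC (SD, n = 3). FPKM are counts scaled to the length of the gene model and to the library total. The deposited Col4a4 values imply a gene model of 1152 bases, against 8137 for Col4a3, so FPKM of Col4a4 cannot be set beside the others.

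The X-linked pair encodes chains that join type IV trimers of skin, kidney and smooth muscle. Col4a5 fell from 133, 152 and 145 CPM to 119, 112 and 117 CPM (log2 change -0.31 ± 0.05 SE, adjusted p = 1.38e-05). Col4a6 fell from 7.53, 8.75 and 7.94 CPM to 1.25, 2.35 and 1.62 CPM (log2 change -2.18 ± 0.20 SE, adjusted p = 8.73e-10). Within each head-to-head pair, members had the same call, with neither passing in the Col4a1 pair, both higher in the Col4a3 pair and both lower in the Col4a5 pair.

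By RefSeq order, 6 pairs of collagen genes had no protein-coding gene between them, the type IV pairs among them. The others were Col3a1 with Col5a2, both higher, Col6a1 with Col6a2, both lower, and Col9a1, which did not pass, with Col19a1, which was higher. No test was made of whether neighbours share a direction more often than other pairs.

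Among fibrillar chains, 3 rose, 7 fell and 1 did not pass of 11 tested. These are 27.3% higher and 63.6% lower, against 29.7% and 29.5% of all genes tested. Of those called, Col2a1 fell below the filter's minimum in at least 1 library. The chains of type I collagen, the most abundant in EMSC, had small decreases. Col1a2, the second chain of type I collagen, stood at 6462, 7251 and 6449 CPM in EMSC against 6043, 6338 and 6088 CPM in NPS-EMSC, without overlap. Its log2 fold change was -0.13 (SE 0.05, adjusted p = 0.0408), and it no longer passed without EMSC replicate 2, NPS-EMSC replicate 1 or NPS-EMSC replicate 3, with adjusted p up to 0.199. Col1a1, the main chain of type I, fell from 6836, 8050 and 6860 CPM to 5831, 6296 and 5827 CPM (log2 change -0.28 ± 0.06 SE, adjusted p = 3.28e-04).

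Col3a1, the chain of the type III collagen of pliable tissue and early repair, rose from 3863, 4479 and 4054 CPM to 6169, 6210 and 5950 CPM. All NPS-EMSC libraries were above all EMSC libraries (log2 change 0.56 ± 0.05 SE, adjusted p = 1.31e-09). Per length, Col3a1 lay below Col1a1 in every EMSC library, at FPKM ratios of 0.690, 0.680 and 0.722, and above it in every NPS-EMSC library, at 1.29, 1.205 and 1.25. Ratios between chains are given as descriptions, with no test.

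The chains of type V collagen, which is buried in type I fibrils and limits their width, split apart. Col5a2 rose from 1700, 1950 and 1787 CPM to 2537, 2680 and 2574 CPM (log2 change 0.52 ± 0.05 SE, adjusted p = 2.91e-09). Col5a1 fell from 969, 1177 and 974 CPM to 575, 619 and 568 CPM (log2 change -0.82 ± 0.07 SE, adjusted p = 2.19e-08). Col5a3, the least abundant of them, fell from 44.1, 50.6 and 48.3 CPM to 11.6, 16.1 and 14.2 CPM (log2 change -1.77 ± 0.09 SE, adjusted p = 3.57e-13). The FPKM ratio of Col5a1 to Col5a2 was 0.447 ± 0.0229 in EMSC and 0.177 ± 0.00397 in NPS-EMSC (SD, n = 3), so the chains that combine in most type V trimers moved away from each other.

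Col11a1 encodes a chain of type XI collagen, a relative of type V that can mix with its chains. It stood at 664, 843 and 743 CPM in EMSC against 852, 817 and 826 CPM in NPS-EMSC, with overlap (log2 fold change 0.15, 95% interval 0.01 to 0.29, adjusted p = 0.0632). It passed without EMSC replicate 2, with DESeq2, with limma-voom, without the low-count filter and with the replicate block, and leaving out 1 library at a time gave an adjusted p of 2.91e-04 to 0.283. Its FPKM ratio to Col5a1 was 0.751 ± 0.0408 in EMSC and 1.48 ± 0.0897 in NPS-EMSC (SD, n = 3).

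Low-abundance fibrillar chains moved in both directions. Col24a1, a minor fibrillar chain known from bone, rose from 7.16, 5.02 and 5.28 CPM to 24.5, 20.2 and 20.7 CPM (log2 change 1.89 ± 0.13 SE, adjusted p = 5.03e-12). Col27a1, a chain of developing cartilage, fell from 14.5 ± 2.13 to 7.70 ± 0.437 CPM (n = 3, SD; log2 change -0.90). Col2a1, the main collagen of cartilage, was scarce at 1.46, 1.66 and 1.202 CPM and fell to 0.235, 0.491 and 0.616 CPM (log2 change -1.58 ± 0.41 SE, adjusted p = 0.00193). Col11a2, a chain of cartilage type XI collagen, was also scarce at 0.923, 1.81 and 1.45 CPM against 0.757, 0.491 and 0.667 CPM (log2 change -1.07 ± 0.39 SE, adjusted p = 0.0207). It did not pass without EMSC replicate 2, EMSC replicate 3 or NPS-EMSC replicate 2, with adjusted p up to 0.124.

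**Figure D2:**
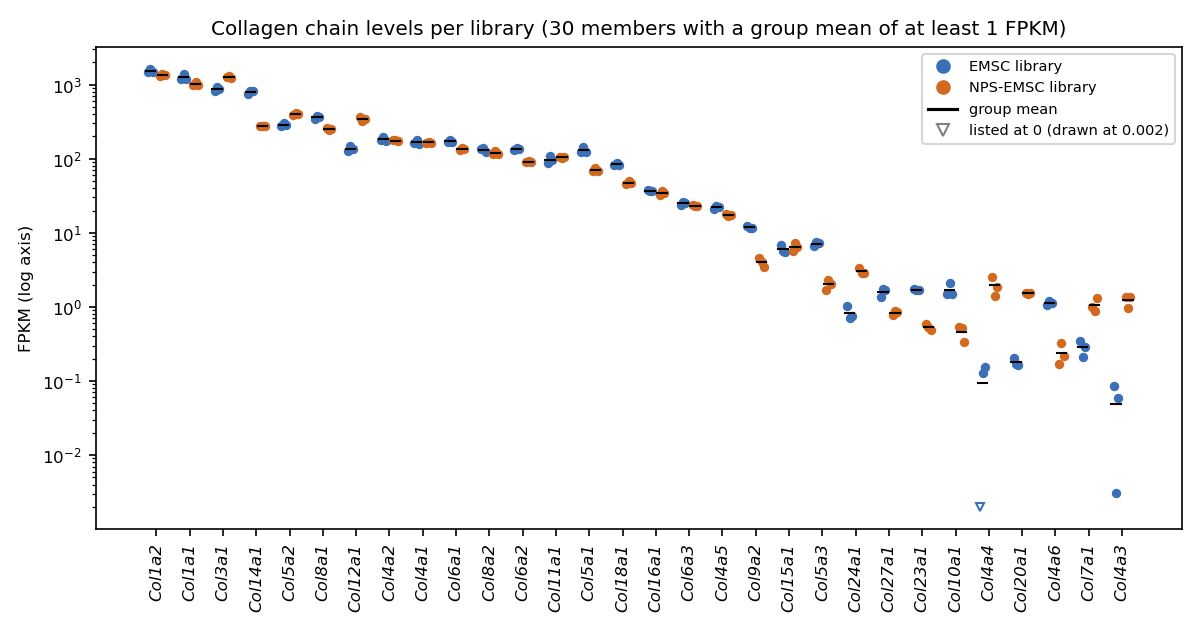
FPKM (log axis) of the 30 collagen chains with a group mean of at least 1 FPKM, with a point for each of 3 EMSC and 3 NPS-EMSC libraries and a line for each group mean. A triangle marks the Col4a4 value at 0. Col4a4 is drawn on its short gene model of 1152 bases, so its level cannot be set beside the others. Col1a2, Col1a1, Col3a1 and Col14a1 lead in EMSC, and the groups stand clear of each other at Col14a1, Col12a1 and Col5a3.

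Col14a1 and Col12a1, both of the FACIT class, had the largest fold changes among the chains above 100 CPM, in opposite directions. They encode the related collagens XIV and XII, which bind the surface of type I fibrils. Col14a1 fell from 5123, 5754 and 5615 CPM to 1945, 1947 and 1944 CPM, a 2.83-fold decrease (log2 change -1.499 ± 0.05 SE, adjusted p = 1.63e-18). Col12a1 rose from 1472, 1766 and 1552 CPM to 4386, 3908 and 4099 CPM, a 2.59-fold increase (log2 change 1.37 ± 0.06 SE, adjusted p = 7.34e-14). No library of either group came near the other group for these genes. Per length, Col12a1 was at 0.170, 0.182 and 0.164 of the Col14a1 level in EMSC and at 1.33, 1.19 and 1.25 of it in NPS-EMSC, so the order of these chains turned. This ratio was added after the values were seen.

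Of the 8 tested FACIT chains, 3 rose, 3 fell and 2 did not pass. These are 37.5% higher and 37.5% lower, against 29.7% and 29.5% of all genes tested. Of those called, Col19a1 and Col22a1 fell below the filter's minimum in at least 1 library. Col20a1, a FACIT chain of low abundance, rose from 1.53, 1.34 and 1.25 CPM to 12.1, 11.7 and 12.3 CPM (log2 change 3.09 ± 0.16 SE, adjusted p = 1.77e-14). Col19a1, known from basement membrane zones and muscle development, was found in 2 reads of EMSC and 159 of NPS-EMSC. The ratio was 83.4 with a 95% counting interval of 22.7 to 694, and the gene passed the test (adjusted p = 1.76e-07). The edgeR test gave a smaller increase, 21.2-fold, which lies below that interval. Its reads gave 0.0486, 0 and 0 CPM in EMSC against 1.31, 1.19 and 1.62 CPM in NPS-EMSC. Counting intervals cover counting error only.

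Col9a2 encodes a chain of type IX collagen, which coats cartilage fibrils, and fell from 36.1, 34.5 and 34.1 CPM to 13.9, 11.9 and 10.3 CPM (log2 change -1.53 ± 0.09 SE, adjusted p = 3.83e-13). Its partner chains were scarce. Col9a1 was at 0.387 ± 0.136 CPM in EMSC against 0.431 ± 0.0334 CPM in NPS-EMSC (SD, n = 3, log2 fold change 0.14, 95% interval -0.86 to 1.14). Col9a3 had 0 reads over EMSC and 6 over NPS-EMSC and was not tested. Taking 3 counts over the EMSC group as the limit and the 6 reads as free of counting error, it was at least 2.10-fold higher. However, 5 of the 6 reads lay in NPS-EMSC replicate 3, and without that library no bound remains. Col22a1, a chain of tissue junctions such as that of muscle and tendon, had 0.338 ± 0.0331 CPM against 0.0780 ± 0.0943 CPM (log2 fold change -1.60, adjusted p = 0.0317). It no longer passed when any library but NPS-EMSC replicate 1 was left out (adjusted p up to 0.135), with DESeq2 or without the low-count filter, and its log2 fold change was -2.35 without NPS-EMSC replicate 1. Col16a1, which bridges fibrils and microfibrils, did not pass at 204 ± 3.09 and 197 ± 8.44 CPM (log2 fold change -0.06, 95% interval -0.15 to 0.04).

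**Figure D3:**
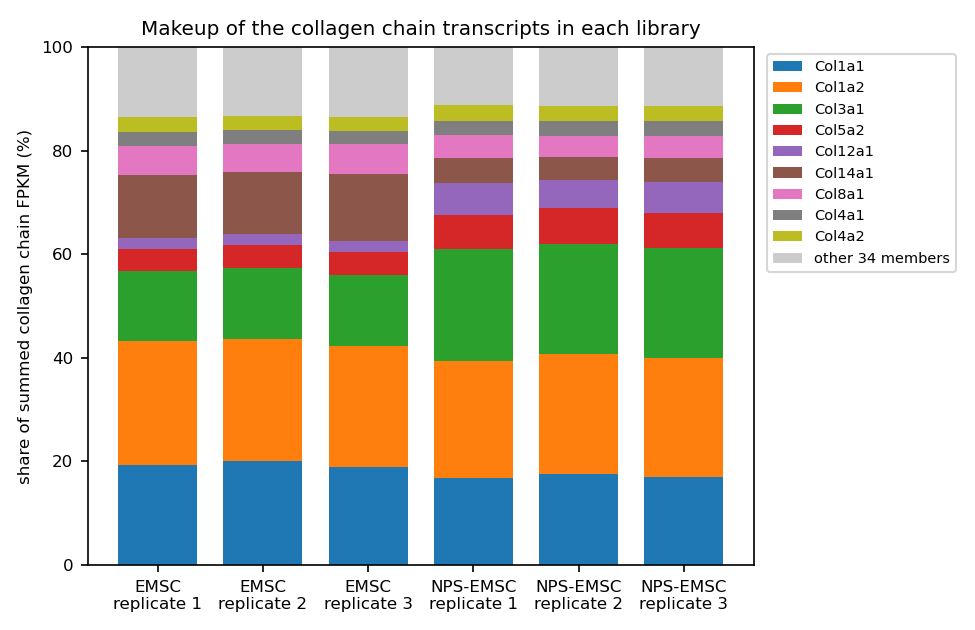
Share of the summed collagen chain FPKM (y axis, %) taken by 9 named chains and by the other 34 in each library. Col3a1, Col5a2 and Col12a1 took larger shares in all NPS-EMSC libraries, and Col14a1 fell from between 11.96% and 12.94% to between 4.54% and 4.71%.

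The makeup of the collagen transcripts differed between the groups in the stacked shares of summed FPKM. Col3a1 took 13.6% ± 0.167 of the summed collagen FPKM in EMSC and 21.3% ± 0.263 in NPS-EMSC (SD, n = 3). Col14a1 took 12.3% ± 0.532 and 4.63% ± 0.0841, and Col12a1 2.12% ± 0.0565 and 5.83% ± 0.408. The fibrillar class as a whole took 64.7% ± 0.748 in EMSC and 71.2% ± 0.604 in NPS-EMSC, and the FACIT class 15.2% ± 0.535 and 11.1% ± 0.464. Transmembrane chains took 0.0303% ± 0.00252 and 0.0114% ± 0.000465. Shares are parts of a whole, so a rise of some members lowers the shares of others.

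Of the short-chain network collagens 2 of 3 fell, of the tested type VI chains 3 of 4, and the others did not pass. The lower chains are 66.7% and 75% of these small classes, against 29.5% of all genes tested. Among the lower type VI chains, Col6a5 had at most 9 reads in any NPS-EMSC library. It passed the read filter only through EMSC, so the 75% rests in part on a chain favoured by the filter. Col8a1 and Col8a2 encode the chains of type VIII collagen, found under endothelium and in vessel walls. Col8a1 fell from 1234, 1358 and 1311 CPM to 972, 910 and 936 CPM (log2 change -0.47 ± 0.05 SE, adjusted p = 4.71e-09). Col8a2 overlapped at 663, 703 and 622 CPM against 604, 655 and 596 CPM (log2 fold change -0.10, 95% interval -0.20 to 0.00, adjusted p = 0.0928). It passed without EMSC replicate 3 or NPS-EMSC replicate 2 and with library totals, upper-quartile factors or filtered FPKM values. Col10a1, the collagen of hypertrophic cartilage, fell from 4.47, 6.40 and 4.51 CPM to 1.70, 1.60 and 1.05 CPM (log2 change -1.79 ± 0.23 SE, adjusted p = 3.68e-07).

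Type VI collagen forms beaded microfilaments around cells. Its abundant chains Col6a1 and Col6a2 fell, from 695 ± 31.8 to 561 ± 18.1 CPM and from 694 ± 20.5 to 483 ± 10.9 CPM (SD, n = 3), with log2 fold changes of -0.31 and -0.52. Col6a3, which joins both in the classical trimer, was at 251, 288 and 275 CPM against 266, 255 and 256 CPM (log2 fold change -0.07, 95% interval -0.17 to 0.03, adjusted p = 0.243) and passed without EMSC replicate 1 and with library totals. Per length Col6a3 lay far below Col6a1, at an FPKM ratio of 0.145 ± 0.00555 in EMSC and 0.172 ± 0.00906 in NPS-EMSC. Col6a5, a chain that can stand in for Col6a3, fell from 1.31, 1.93 and 1.75 CPM to 0.0261, 0.233 and 0.0257 CPM (log2 change -3.56 ± 0.52 SE, adjusted p = 2.11e-06). Most of its NPS-EMSC reads lay in replicate 2, without which the log2 fold change was -4.49. The related Col6a6 had 49 reads over EMSC and 1 over NPS-EMSC, a ratio of 46.7 (95% counting interval 8.005 to 1883), and Col6a4 had 7 and 2. Neither of these was tested.

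Chains of the cell surface and the remaining classes were few. Col23a1, a transmembrane collagen, fell from 9.98, 9.87 and 9.77 CPM to 3.47, 3.18 and 2.90 CPM (log2 change -1.62 ± 0.15 SE, adjusted p = 1.02e-09). Col25a1, the transmembrane chain first found in amyloid plaques, was at 1.502 ± 0.435 against 0.810 ± 0.185 CPM (n = 3, SD; log2 change -0.85, adjusted p = 0.0471). Of the 6 fits with 1 library left out, it passed only in that without EMSC replicate 3, and it did not pass with DESeq2, limma-voom, unfiltered log2(FPKM + 1) or the replicate block. The other transmembrane chains were not tested. Col13a1 had 11 reads over EMSC and 2 over NPS-EMSC, a ratio of 5.25 (95% counting interval 1.14 to 48.7), and 9 of the EMSC reads lay in replicate 1. Col17a1, the hemidesmosome collagen of epithelium, was at 0.230 ± 0.0174 and 0.233 ± 0.0692 CPM.

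Col7a1, the anchoring fibril collagen that fastens epithelium to dermis, rose from 3.18, 1.98 and 2.65 CPM to 9.45, 8.30 and 12.6 CPM (log2 change 1.94 ± 0.19 SE, adjusted p = 3.84e-09). Of the multiplexins, which carry sugar chains and release fragments such as endostatin, Col18a1 fell from 407, 433 and 405 CPM to 235, 253 and 238 CPM (log2 change -0.78 ± 0.05 SE, adjusted p = 1.88e-13). Col15a1 overlapped at 30.7 ± 2.99 and 33.8 ± 3.76 CPM (log2 fold change 0.14, 95% interval -0.04 to 0.31, adjusted p = 0.170) and passed without EMSC replicate 1. Col28a1 had 10 reads over EMSC and 0 over NPS-EMSC and was not tested. Taking 3 counts over the NPS-EMSC group as the limit and the 10 EMSC reads as free of counting error, it was at least 3.18-fold lower.

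**Figure D4:**
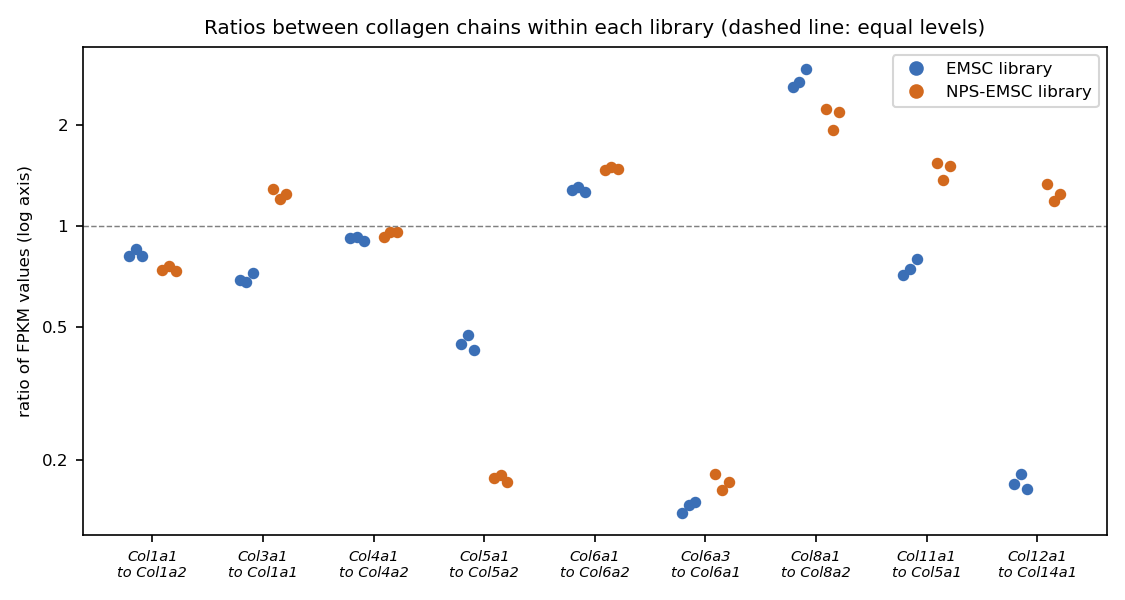
Ratio of FPKM values (log axis) of 9 pairs of collagen chains in each of 3 EMSC and 3 NPS-EMSC libraries, with a dashed line at equal levels. The ratios of Col3a1 to Col1a1, Col11a1 to Col5a1 and Col12a1 to Col14a1 crossed from below 1 to above 1, and that of Col4a1 to Col4a2 lay between 0.903 and 0.958 in all libraries.

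Chains that form a trimer together thus differed in how closely they moved. Col1a1 to Col1a2 had an FPKM ratio of 0.826 ± 0.0220 in EMSC and 0.745 ± 0.0146 in NPS-EMSC, and Col4a1 to Col4a2 one of 0.917 ± 0.0127 and 0.947 ± 0.0183 (SD, n = 3). Col6a1 to Col6a2 moved from 1.28 ± 0.0252 to 1.49 ± 0.0147, and Col8a1 to Col8a2 from 2.74 ± 0.177 to 2.12 ± 0.163. The ratio of Col5a1 to Col5a2, given above, moved furthest among these partners, which are only the pairs chosen for ratios. Col4a5 and Col4a6, with log2 fold changes of -0.31 and -2.18, were not among them. Nor were Col9a1 and Col9a2, with 0.14 and -1.53.

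Genes that modify, export, trim, crosslink, bind and degrade collagen were taken from lists drawn up by function, with earlier results of these data known. Of 73 tested members, 29 rose, 31 fell and 13 did not pass, with a median log2 fold change of -0.02. These are 39.7% higher and 42.5% lower, against 29.7% and 29.5% of all genes tested, and the counts of the lists that follow are read against the same shares. Of the enzymes and chaperones of chain folding in the endoplasmic reticulum, 8 of 12 rose and 1 fell. P4ha1, the catalytic chain of the prolyl hydroxylase that stabilises the helix, rose from 223 ± 10.9 to 392 ± 0.913 CPM (n = 3, SD; log2 change 0.82 ± 0.05 SE, adjusted p = 4.94e-14). The collagen chaperone gene Serpinh1 rose 1.31-fold to 1620 ± 23.5 CPM, the immunophilin gene Fkbp10 1.34-fold and the prolyl 3-hydroxylase gene P3h1 1.37-fold. All 4 tested genes of lysyl hydroxylation and glycosylation rose, Colgalt1 by 0.70 on the log2 scale, Plod2 by 0.58, Plod3 by 0.56 and Plod1 by 0.38.

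Of the genes of export from the endoplasmic reticulum, 4 of 9 rose and 2 fell, with a median log2 fold change of -0.04. The coat protein genes Sec13 and Sec31a rose 1.43-fold and 1.19-fold, and Sar1b, which encodes the GTPase that starts coat assembly, rose 1.41-fold. Creb3l2, which encodes a transcription factor of secretory genes, fell from 255 ± 14.4 to 180 ± 1.205 CPM (SD, n = 3). Genes of propeptide removal went both ways, with 3 of 6 higher and 3 lower. Named after their values were seen, Adamts14 rose 2.79-fold from a low level and Pcolce, which encodes no propeptidase, rose 1.11-fold. Adamts2, the main N-propeptidase of fibrillar procollagens, fell from 851 ± 27.1 to 239 ± 10.1 CPM (log2 change -1.83 ± 0.05 SE, adjusted p = 6.70e-21), and its relative Adamts3 had a log2 fold change of -1.07. Of the C-propeptidases, Bmp1 fell from 112 ± 1.40 to 84.4 ± 3.37 CPM and Tll1 rose from 76.1 ± 3.22 to 210 ± 5.80 CPM (log2 change 1.46 ± 0.05 SE, adjusted p = 1.04e-18). Of 5 lysyl oxidases, which crosslink collagen, 3 rose and 2 fell. The abundant Lox fell 1.31-fold to 1558 ± 20.0 CPM and Loxl1 fell 1.504-fold, while Loxl2 rose 1.91-fold to 78.8 ± 7.35 CPM and Loxl3 1.30-fold.

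**Figure D5:**
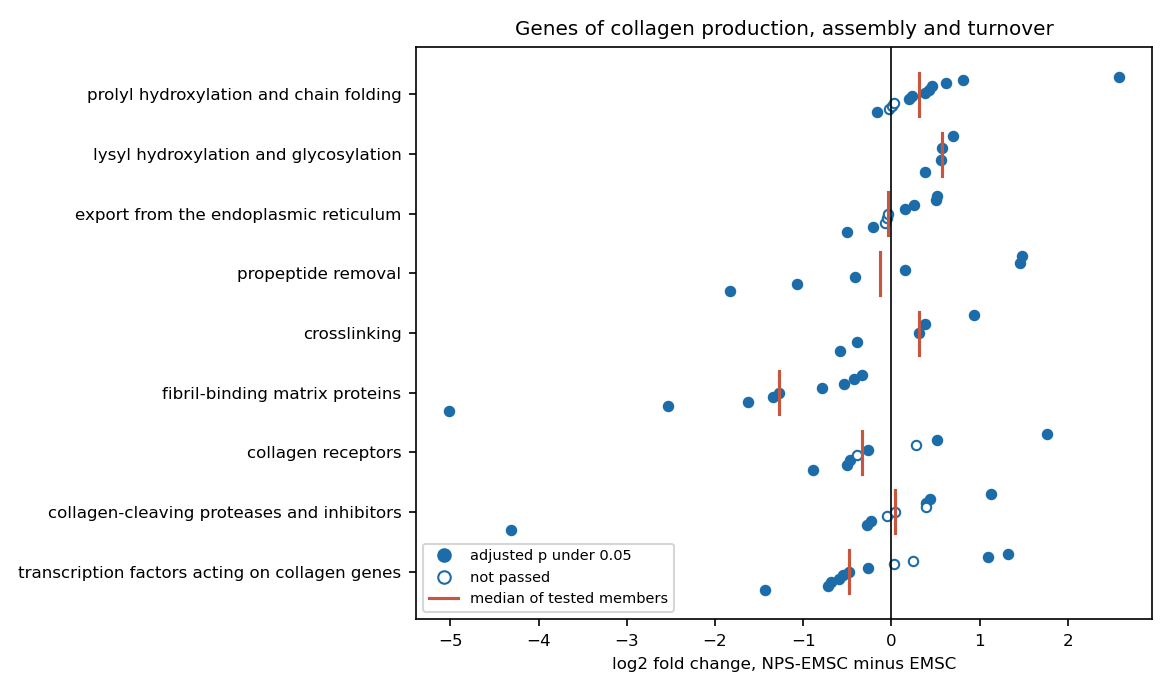
Log2 fold change (NPS-EMSC minus EMSC, x axis) of 73 tested genes that act on collagen, by function, with filled points for an adjusted p under 0.05, open points for genes that did not pass and a bar at each list's median. All 9 fibril-binding matrix genes lie below 0 and all 4 genes of lysyl modification above 0.

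All 9 tested genes of fibril-binding matrix proteins fell. Fmod, the fibromodulin gene whose product guides fibril growth and crosslinking, fell from 113 ± 3.13 to 19.6 ± 0.593 CPM (n = 3, SD; log2 change -2.53 ± 0.06 SE, adjusted p = 5.52e-22). Comp, which encodes a pentameric collagen-binding protein of cartilage and tendon, fell from 19.4 ± 1.51 to 0.552 ± 0.0443 CPM (log2 fold change -5.01). Dcn and Lum, small proteoglycan genes known to limit fibril width, had log2 fold changes of -1.62 and -1.35. Decreases of some of these genes were known when the list was made, so its direction is no independent evidence.

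Of 8 tested receptors, 2 rose and 4 fell. Among the integrin chains that bind collagen, Itga1 fell from 678 ± 59.8 to 366 ± 4.45 CPM (n = 3, SD; log2 change -0.89) and Itga11 rose from 76.2 ± 5.65 to 260 ± 2.32 CPM (log2 change 1.77 ± 0.05 SE, adjusted p = 8.20e-20). Their common partner Itgb1 rose 1.43-fold, and Mrc2, the endocytic collagen receptor gene, fell 1.38-fold. Of 9 tested proteases and inhibitors 3 were higher and 3 lower, which is near the share of all genes called. The gelatinase gene Mmp2 rose 2.19-fold to 3588 ± 234 CPM, the membrane collagenase gene Mmp14 1.36-fold to 469 ± 14.6 CPM and the inhibitor gene Timp1 1.31-fold. The other inhibitor genes went the other way. Timp2 fell 1.21-fold to 2385 ± 46.9 CPM, and Timp3 fell 1.17-fold with overlapping groups. Mmp8, the neutrophil collagenase, had 137 reads over EMSC and 1 over NPS-EMSC, a ratio of 131 (95% counting interval 23.1 to 5198). The edgeR test gave a smaller decrease, 19.9-fold (adjusted p = 2.66e-07), which lies below that interval. Mmp8 passed the read filter only through EMSC.

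Of 11 tested transcription factors with known action on collagen genes, 7 fell and 2 rose. Creb3l1, which encodes an activator of type I collagen genes, fell from 83.1 ± 0.992 to 50.3 ± 5.27 CPM (n = 3, SD; log2 change -0.72). Runx2, an osteoblast factor gene, and Smad2, a mediator gene of TGF-β signalling, had log2 fold changes of -0.55 and -0.48. Increases were seen for the tendon factor genes Mkx, from 5.01 ± 0.443 to 12.6 ± 1.39 CPM, and Scx, from 4.21 ± 0.358 to 9.04 ± 0.555 CPM. Scx was named after its values were seen.

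Cartilage collagens were read beside the other chondrocyte markers, since Col2a1, Col9a1 and Col11a2 are on that list. Of its 9 tested members 5 fell and 2 rose, and the list summed to 21.8 to 27.5 CPM in EMSC and 27.5 to 31.9 CPM in NPS-EMSC. Of those called, Cnmd, Col2a1 and Snorc fell below the filter's minimum in at least 1 library. Named after their values were seen, Cnmd, the chondromodulin gene, fell from 2.24 ± 0.194 to 0.0603 ± 0.104 CPM, while Acan, the cartilage proteoglycan gene aggrecan, rose from 2.07 ± 0.217 to 18.7 ± 1.28 CPM (SD, n = 3). Their part in the collagen values was not tested.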

How the data were processed

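RNA of 3 EMSC and 3 NPS-EMSC libraries was sequenced. The authors deposited raw read counts per gene and FPKM of the same 20653 genes, which are the counts divided by 1 fixed length per gene and the column total. The submitters' processing notes list HISAT2, StringTie, HTSeq, fastp, DESeq and R 3.2.0 without roles. For build, annotation and strand the entry is: not given in the sources used here.

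From the counts, edgeR 4.0.16 (R 4.3.3) gave quasi-likelihood F tests of all genes (TMM, filterByExpr with minimum count 10 and minimum total 15, prior count 2), with Benjamini-Hochberg adjustment over 14505 genes. Every adjusted p printed is from this test unless another tool is named. The SE was derived from F, as the size of the log2 fold change over the root of F. The procedure was tested on simulated data with 50 genes changed at each fold size. It recovered 40% of them at 1.2-fold, 82% at 1.5-fold, 94% at 2-fold and 98% at 4-fold. There were 10 false calls in 14300 genes. Far fewer genes were changed in the simulation than were called in these data, so it does not give the error rate here. Alternatives used limma 3.58.1, DESeq2 1.42.0, other scalings and filters, and 1 library left out. Counting intervals are at 95% and exact.

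The members and lists were chosen with earlier results of these data known. Values in every library are given for called chains with an absolute log2 fold change of at least 1 and a mean of at least 1 CPM, and for the 8 highest by FPKM, and some others were added. Up to 4 called genes per list of collagen-related genes were named by smallest p, and some others were added after their values were seen. Col21a1 and Col26a1 were not analysed here. Promoter bases are from RefSeq (GRCr8).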

Additional observations from a re-analysis of the deposited data

How the results depend on the processing

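Over all alternatives, 8 to 10 collagen chains were higher and 16 to 22 lower, 26 to 30 genes of collagen production and turnover were higher and 29 to 32 lower, and 7121 to 8914 of all genes were called. Leaving out 1 library at a time gave 9 to 10 chains higher and 16 to 20 lower. The direction changed for Col4a1 and Col4a2 alone among the 37 chains, neither of which passed. The log2 fold change of Col4a1 was -0.00748 with library totals, -0.00504 with log2(FPKM + 1), filtered or not, and -0.00506 with log2(FPKM + 0.1), and ranged from -0.014 to 0.10 when 1 library was left out. That of Col4a2 ranged from -0.050 to 0.047. At an adjusted p under 0.01, Col1a2, Col11a2, Col22a1 and Col25a1 no longer passed, and Col1a2 and Col25a1 also did not pass with unfiltered log2(FPKM + 1). Fold changes of chains with few reads depended on the tool by over 1.5 times. With limma-voom the log2 fold change was 5.42 for Col4a3, 4.97 for Col4a4, -4.52 for Col6a5, 6.02 for Col19a1 and -2.68 for Col22a1, and with DESeq2 it was 6.39 for Col19a1, against 4.41 with edgeR. The pseudocount of log2(FPKM + 1) shrinks the change of low chains, to 1.08 for Col4a3. The shift of the median of all genes under another scaling was at most -0.044. The Nps log2 fold change was 14.02 and 15.41 without EMSC replicate 3, which held all 10 EMSC reads. Depth limits the chains with few reads, of which 6 were not tested.

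The groups share replicate numbers, but deviations of same-numbered libraries correlated at -0.039, 0.046 and 0.036 over 14505 genes, so the numbers were not taken as pairs. With the replicate block, 10 chains were higher and 19 lower, 8588 genes were called in all, and 29 collagen-related genes were higher and 30 lower.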

Other observations

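Genes of tendon and ligament, chosen as markers, were read beside the collagens because several FACIT and fibrillar chains are known from that tissue. Tnmd, the tenomodulin gene, rose from 3.44 ± 0.586 to 38.6 ± 5.04 CPM (SD, n = 3). Thbs4, which encodes a matrix protein of tendon and muscle, rose from a mean of 20.4 to 64.4 CPM. With Scx and Mkx, 4 of the 5 tested markers rose and Fmod fell, and the list summed to 144 to 150 CPM in EMSC and 139 to 147 CPM in NPS-EMSC. Osteoblast markers summed to 67.5 to 70.2 CPM and 55.0 to 62.2 CPM, with 2 of 5 tested higher and 2 lower. The part of these markers in the collagen results was not tested.

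The spread between libraries of the 18 chains above 100 CPM had a median coefficient of variation of 6.89% in EMSC and 3.05% in NPS-EMSC.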
